A study of Rattus norvegicus with 6 samples.

Results

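The miR-181 family in these data consists of 7 mature rat miRNAs, 4 from the 5p arm and 3 from the 3p arm of their precursors, which were picked by name from the 867 miRNA sequences counted in small RNA of serum exosomes. All 7 were listed, and each had at least 10 reads over the libraries, so all 7 entered the test. Exosomes are small vesicles that cells shed into blood. They came from the serum of male Sprague-Dawley rats, aged 6 to 8 weeks and kept on a normal diet, that received Naoxintong Capsule (NXT, a traditional Chinese medicine) at 1000 mg/kg/d by gavage (NXT-Exo, 5 libraries) or saline at 5 mL/kg/d (Ctl-Exo, 1 library, replicate 5). The question behind the comparison is which exosomal miRNAs change when NXT is given. The sample titles state 7 days of dosing for every library, while the treatment field names days 7, 8, 9, 10 and 11, in this order, beside NXT-Exo 1 to 5, with day 11 beside Ctl-Exo 5. Each group had 10 rats, each rat gave 10 mL of blood, and 110 mL of serum went into the centrifuge. The labels do not tie a library to a rat, so a library may hold pooled serum, and every p-value below measures the spread between libraries only.

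Listed reads numbered 1168686 to 3781718 per NXT-Exo library, and Ctl-Exo 5 had 1890463. Levels are CPM, counts scaled to a common library total with TMM factors, and 1 read was worth 0.261 to 0.782 CPM. They are not divided by length, because a small RNA read covers the whole miRNA. In a check of the sample type with miRNAs known from blood cells, the 4 red blood cell miRNAs summed to 157700 to 260300 CPM in the NXT-Exo libraries, with 210400 CPM in Ctl-Exo 5, and the 7 white blood cell miRNAs to 24390 to 28040 and 30010 CPM. Of the brain miRNAs, miR-124-3p and miR-9a-5p mark neurons and neural progenitors. They had means of 11.03 and 11.21 CPM in NXT-Exo, against 7.62 and 14.7 CPM in Ctl-Exo 5. These rest on 16 to 33 and 11 to 60 reads per NXT-Exo library. miR-128-3p, which is also found outside the brain, held most of the list's reads. The exosome label itself could not be checked, because the defining markers of exosomes are proteins.

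A miRNA guides a silencing complex to messenger RNAs through its seed, bases 2 to 8 from the 5′ end, so miRNAs that share a seed share many predicted targets. Either arm of the precursor hairpin can be kept as the mature miRNA, and the arm kept less often is called the passenger. In mammals the miR-181 genes lie in tandem pairs, each with a miR-181a or miR-181c gene followed by a miR-181b or miR-181d gene. miR-181a is known as a regulator of T cell receptor sensitivity during thymocyte development, and miR-181b as a repressor of NF-κB signalling in vascular endothelium through an importin.

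The mature sequences below were taken from the deposited table, written as DNA with the seed in capitals, because the family is divided first by seed and then by bases near the middle and 3′ end.
rno-miR-181a-5p: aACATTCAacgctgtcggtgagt
rno-miR-181b-5p: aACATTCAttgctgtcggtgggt
rno-miR-181c-5p: aACATTCAacctgtcggtgagt
rno-miR-181d-5p: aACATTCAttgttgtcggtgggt
rno-miR-181a-1-3p: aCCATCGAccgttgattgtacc
rno-miR-181c-3p: aCCATCGAccgttgagtggacc
rno-miR-181a-2-3p: aCCACCAAccgttgactgt

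The 4 members of the 5p arm shared 1 seed, and in the whole table that seed was found in 5 sequences, the fifth being a longer form of miR-181d-5p described further on. miR-181b-5p and miR-181d-5p differed by a single substitution, C12T, with positions counted from 1 at the 5′ end and the base of miR-181b-5p written first. Against miR-181a-5p, miR-181b-5p had 3 substitutions (A9T, C10T and A21G) and miR-181d-5p had 4 (A9T, C10T, C12T and A21G), with the base of miR-181a-5p first. miR-181c-5p was 1 base shorter than miR-181a-5p and 1 edit away from it, with the same first 10 bases. The 3p arms fell into 2 other seeds. miR-181a-1-3p and miR-181c-3p shared theirs and differed by T16G and T19G (base of miR-181a-1-3p first), while miR-181a-2-3p had a seed of its own among the members. With differences this small, reads with a sequencing error or a changed end could be given to the wrong member, and how the authors divided such reads is not given in the sources used here.

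All 7 sequences matched a mature miRNA of RefSeq for the rat assembly GRCr8. miR-181a-5p matched 2 genes, Mir181a-1 on chromosome 13 and Mir181a2 on chromosome 3, so its reads cannot be assigned to either, whereas its 3p arms differ between these genes. The sequence of miR-181b-5p, given by RefSeq for Mir181b1, is also present whole in the hairpin of Mir181b2, so its reads cannot be assigned to 1 gene either. In the RefSeq gene list Mir181a-1 and Mir181b1 lie next to each other within a long noncoding RNA gene and before Ptprc, which encodes the leukocyte antigen CD45. Mir181a2 and Mir181b2 lie within the span of the protein-coding gene Nr6a1, and Mir181c and Mir181d lie next to each other before Nanos3. The submitters' processing notes name another build, Rnor_6.0, and the deposited table gives no positions. Later results turn on the reads of each arm and on reads that extend past an arm. The RefSeq hairpins of 3 genes are therefore shown with their mature arms in capitals. They are Mir181c at chr19:40888291-40888396, Mir181d at chr19:40888474-40888556 and Mir181a2 at chr3:43025563-43025679, all on the plus strand of GRCr8.
Mir181c: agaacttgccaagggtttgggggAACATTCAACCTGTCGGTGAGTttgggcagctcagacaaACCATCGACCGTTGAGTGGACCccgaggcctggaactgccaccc
Mir181d: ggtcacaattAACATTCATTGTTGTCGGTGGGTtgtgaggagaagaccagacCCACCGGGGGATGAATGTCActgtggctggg
Mir181a2: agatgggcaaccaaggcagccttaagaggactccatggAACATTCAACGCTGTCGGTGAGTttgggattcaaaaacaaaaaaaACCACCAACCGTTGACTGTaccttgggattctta

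Summed over the 4 members of the 5p arm, the family level was 4277, 4441, 4943, 4858 and 4819 CPM in NXT-Exo 1 to 5, beside 4587 CPM in Ctl-Exo 5. Ctl-Exo 5 thus lay inside the NXT-Exo range, below 3 libraries and above 2. The mean of the log2 levels in NXT-Exo was higher by 0.02 with an SD of 0.09 between the 5 libraries, and in the two-sided exact permutation test, which takes each of the 6 libraries in turn as the single one, p was 1. This test cannot give a p below 0.167 here. The 7 members together made up 0.476% to 0.59% of the listed reads in NXT-Exo, against 0.496% in Ctl-Exo 5.

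The order of the 7 members was identical in all 6 libraries, and no range of CPM overlapped that of the next member. miR-181a-5p, which 2 genes can yield, was highest with 2976, 3030, 3519, 3454 and 3509 CPM in NXT-Exo 1 to 5 and 3094 CPM in Ctl-Exo 5, and it ranked 41 among all listed miRNAs by mean level. miR-181d-5p followed with 698, 801, 707, 721 and 646 CPM in the same order, against 824 CPM in Ctl-Exo 5, and miR-181b-5p with 533, 537, 625, 586 and 582 CPM and 586 CPM. So miR-181a-5p had 3.75 to 5.44 times the reads of miR-181d-5p, while miR-181d-5p exceeded miR-181b-5p by only 1.11 to 1.49 times. Ctl-Exo 5 was above every NXT-Exo library for miR-181d-5p and inside the NXT-Exo range for miR-181a-5p and miR-181b-5p.

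Of the less abundant members, miR-181c-3p had 320, 350, 299, 358 and 369 CPM in NXT-Exo 1 to 5 and 379 CPM in Ctl-Exo 5, which was above all 5. miR-181a-1-3p, the 3p arm of Mir181a-1, had 121, 133, 116, 152 and 152 CPM against 120 CPM. Its level in Ctl-Exo 5 was below 4 NXT-Exo libraries and above NXT-Exo 3. miR-181c-5p had 70.4, 72.9, 91.7, 97.7 and 82.7 CPM against 82.8 CPM, and miR-181a-2-3p 15.3, 14.5, 28.3, 20.3 and 19.6 CPM against 20.2 CPM. For both, Ctl-Exo 5 lay near the middle of the NXT-Exo libraries.

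**Figure D1:**
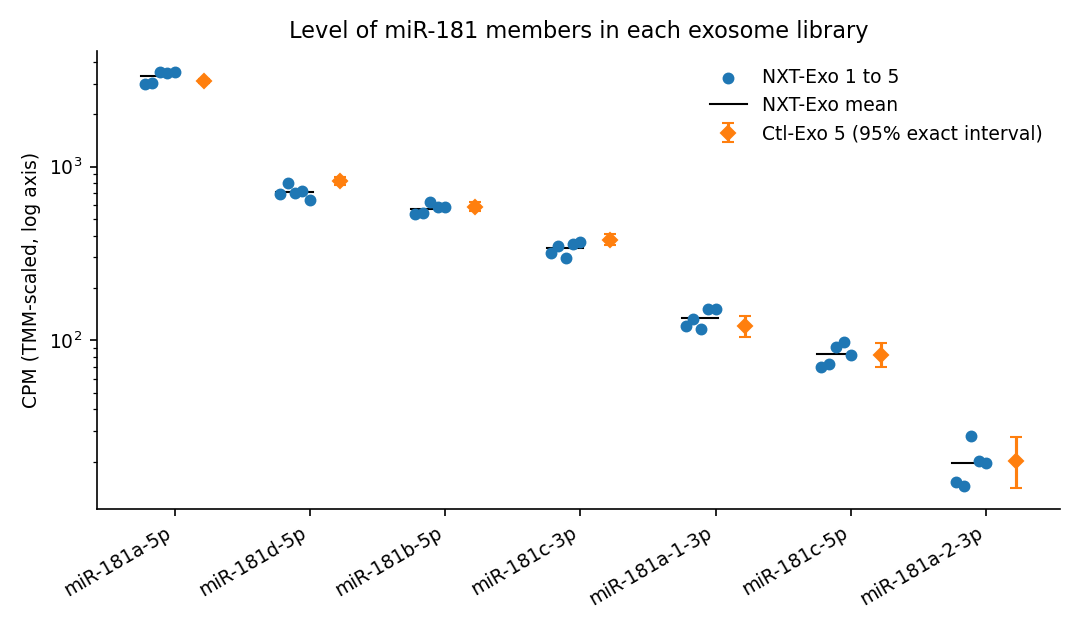
Level of each miR-181 member in CPM after TMM scaling, on a log axis. Blue points are NXT-Exo 1 to 5, the black line is their mean, and the orange diamond is Ctl-Exo 5 with its exact 95% binomial interval, which covers counting error only. The members keep the same order throughout, from miR-181a-5p (mean of 3298 CPM in NXT-Exo) to miR-181a-2-3p (19.6 CPM), and Ctl-Exo 5 lies above all NXT-Exo points only for miR-181d-5p and miR-181c-3p.

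No member passed the test between NXT-Exo and Ctl-Exo 5. With edgeR's quasi-likelihood test, 0 of the 7 members had an adjusted p under 0.05, against 0% of the 736 miRNAs tested, and DESeq2 also called 0. At an unadjusted p under 0.05, edgeR had 40 miRNAs and DESeq2 34, and none of the 7 members was among those of edgeR. At so small a share of the 736 miRNAs tested, the absence of all 7 members says little. Because a single Ctl-Exo library was used, the spread comes from NXT-Exo alone, and Ctl-Exo 5 is assumed to vary like the NXT-Exo libraries. The largest fitted difference was that of miR-181d-5p, with a log2 fold change of -0.21 ± 0.20 (SE) and an adjusted p of 0.776 by edgeR. It was followed by miR-181a-1-3p with 0.16 ± 0.26 (SE) and miR-181c-3p with -0.16 ± 0.22 (SE). The other members had log2 fold changes of 0.09 for miR-181a-5p, -0.05 for miR-181a-2-3p, -0.04 for miR-181b-5p and 0.00 for miR-181c-5p. The median over the 7 members was -0.04, beside 0.12 over all miRNAs tested.

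The fitted intervals rest on that assumed spread of Ctl-Exo 5, so they give the precision of the fit and set no limit on a difference between the groups. For miR-181a-5p the 95% interval of NXT-Exo over Ctl-Exo 5 ran from 0.779-fold to 1.46-fold, for miR-181b-5p from 0.722-fold to 1.32-fold and for miR-181d-5p from 0.642-fold to 1.17-fold. For 6 of the 7 members both ends of the interval were less than 2-fold from equality. The exception was miR-181a-2-3p, whose interval of 0.479-fold to 1.95-fold goes with only 26 to 75 reads per NXT-Exo library.

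**Figure D2:**
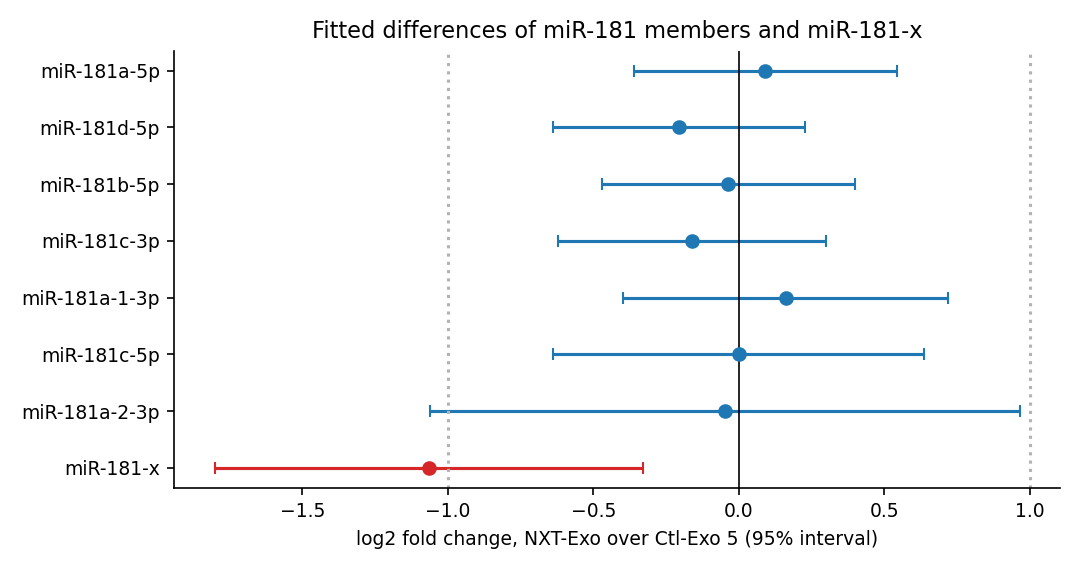
Fitted log2 fold change of NXT-Exo over Ctl-Exo 5 with its 95% interval from edgeR, for the 7 members (blue) and for miR-181-x, a longer form of miR-181d-5p (red). Dotted lines mark 2-fold differences. Every member's interval includes 0, and that of miR-181-x runs from -1.80 to -0.33. Of the 3 other sequences named miR-181, only miR-181-x is plotted. For miR-181-y the fitted value was 6.71, with an interval of 2.05 to 11.4, and DESeq2 gave 5.64. With 0 reads of miR-181-y in Ctl-Exo 5, the size of this value is not determined. For rno-miR-181d-3p the fitted value was -0.18, with an interval of -3.32 to 2.96.

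Ctl-Exo 5 lay above all 5 NXT-Exo libraries for 2 of the 7 members, miR-181d-5p and miR-181c-3p, where 15.5% of the miRNAs tested did so, and below all 5 for 0 of them, where 17.7% did so. These 2 members come from the neighbouring genes Mir181d and Mir181c, but for the other arm of each gene Ctl-Exo 5 lay inside the NXT-Exo range. It had 82.8 CPM of miR-181c-5p, against 70.4 to 97.7 CPM in NXT-Exo. For rno-miR-181d-3p, which had few reads, it had 2.18 CPM, against 1.33 to 3.39 CPM. For miR-181d-5p the exact 95% interval of Ctl-Exo 5, 783 to 867 CPM, held NXT-Exo 2 but no other NXT-Exo library. For miR-181c-3p the interval of 351 to 408 CPM held NXT-Exo 4 and 5. Scaling to the listed total, or to the totals behind the deposited TPM, placed Ctl-Exo 5 inside the NXT-Exo range for miR-181c-3p, but left it above all 5 for miR-181d-5p. These counts also rest on single libraries. Without NXT-Exo 3, Ctl-Exo 5 was above all the others for 4 members, with miR-181b-5p and miR-181a-2-3p added. It was then below all for 1, miR-181a-1-3p. Of the 704 miRNAs tested in that setting, it was above all for 137 and below all for 154. Without NXT-Exo 2 it was below all for 1 member, miR-181a-5p, and for 149 of the 696 miRNAs tested. A range over fewer libraries leaves more miRNAs outside it, 41.34% without NXT-Exo 3 against 33.15% with all 5. White blood cells are also known to express miR-181. The 7 white blood cell miRNAs of the marker list were on the same side as miR-181d-5p and miR-181c-3p. Of all 7 miR-181 members, however, 4 had a lower and 3 a higher fitted level in NXT-Exo. All 7 white blood cell miRNAs were lower, as were 301 of the 736 miRNAs tested. Their median log2 fold change was -0.24, and Ctl-Exo 5 was above all NXT-Exo libraries for 3 of them, beside the 15.5% over all miRNAs tested. The 3 liver miRNAs lay on the other side and farther off, with a median of 1.64 and sums of 3308 to 17430 CPM in NXT-Exo against 2203 CPM, 0 called and 1 at an unadjusted p under 0.05. The medians of the red blood cell, brain and endothelial lists were 0.04, 0.03 and 0.06, with 0 called. The part of any of these lists in the position of miR-181d-5p and miR-181c-3p was not tested.

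The share of each member among the family's reads does not depend on how libraries are scaled, and the intervals given for Ctl-Exo 5 cover counting error only. miR-181a-5p made up 62.9%, 61.4%, 65.3%, 64.1% and 65.5% of the member reads in NXT-Exo 1 to 5, against 60.6% in Ctl-Exo 5 (exact 95% interval 59.6% to 61.6%). Ctl-Exo 5 was below all 5, by 3.25 percentage points from the mean of 63.8% ± 1.74 (SD, n = 5), although NXT-Exo 2 lay within its interval. The two-sided exact permutation test gave p = 0.167, the smallest it can give. For miR-181d-5p the shares were 14.8%, 16.2%, 13.1%, 13.4% and 12.0% against 16.1%, so Ctl-Exo 5 exceeded 4 NXT-Exo libraries and lay below NXT-Exo 2. miR-181b-5p stayed at 10.8% to 11.6% in NXT-Exo and 11.5% in Ctl-Exo 5, a range narrower than 1 percentage point.

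**Figure D3:**
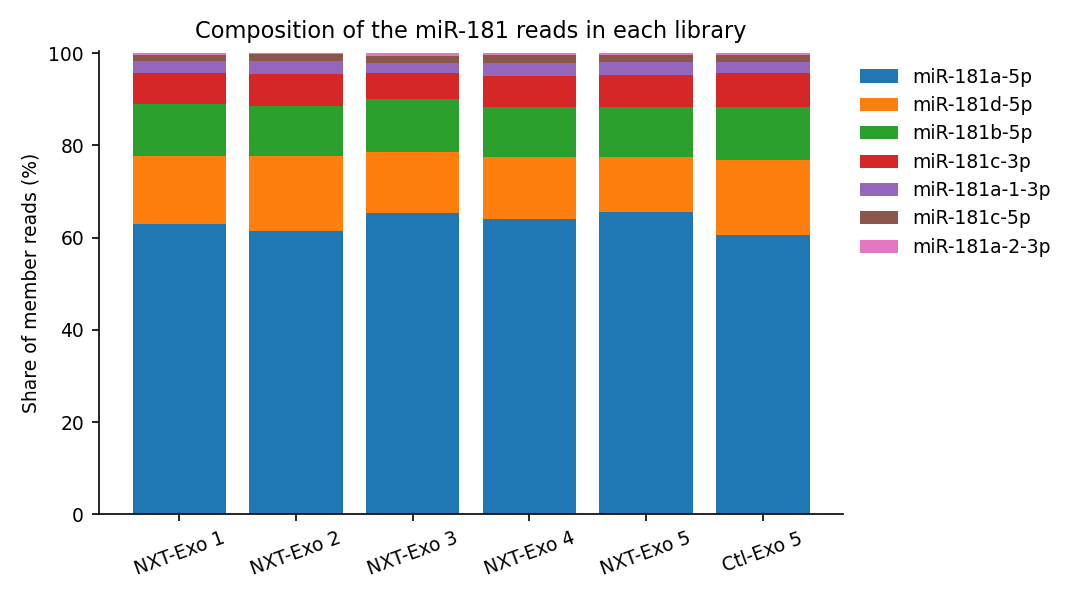
Share of the 7 members in percent of all member reads, 1 bar per library, stacked from miR-181a-5p at the bottom to miR-181a-2-3p at the top. The miR-181a-5p share lies between 61.4% and 65.5% in NXT-Exo and at 60.6% in Ctl-Exo 5, and the miR-181b-5p share is nearly level across the bars.

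As ratios, miR-181a-5p had 426, 378, 498, 479 and 544 reads per 100 reads of miR-181d-5p in NXT-Exo 1 to 5 and 375 in Ctl-Exo 5. Ctl-Exo 5 was lowest, but by little against NXT-Exo 2, which lay within its exact 95% interval of 355 to 397. Per 100 reads of miR-181b-5p, miR-181a-5p had 558 to 603 reads in NXT-Exo, against 528 in Ctl-Exo 5, again below all 5, with an exact 95% interval of 494 to 564 that held NXT-Exo 1 and 3, while NXT-Exo 2 lay at its upper end. The ratio of miR-181d-5p to miR-181b-5p, which differ by 1 base, was 111 to 149 per 100 reads in NXT-Exo, against 141 in Ctl-Exo 5.

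The balance of reads between the arms went in opposite directions within the family. These are reads in exosomes, and how the cells of origin kept the arms was not measured. At Mir181c the 3p arm had more reads than the 5p arm. Per 100 reads of miR-181c-5p, miR-181c-3p had 455, 480, 326, 366 and 447 reads in NXT-Exo 1 to 5 and 458 in Ctl-Exo 5. Both arms are marked in the hairpin of Mir181c above, and the 3p arm exceeded the 5p arm in all 6 libraries. For miR-181a it was the 5p arm that prevailed, with 4.09 to 4.98 reads of its 3p arms together per 100 reads of miR-181a-5p in NXT-Exo and 4.54 in Ctl-Exo 5. At Mir181d the 3p arm, rno-miR-181d-3p, had 2 to 13 reads per library and 0.191 to 0.525 reads per 100 of the 5p arm, so it was close to the limit of 3 reads taken as the detection floor. The arm ratio in Ctl-Exo 5 lay within the NXT-Exo range for all 3. The 5p arms of the neighbouring genes Mir181c and Mir181d differed widely in reads. miR-181d-5p had 738 to 1099 reads per 100 reads of miR-181c-5p over the 6 libraries.

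The 3p arms of Mir181a-1 and Mir181a2 differ, so their 3p reads can be told apart by gene. miR-181a-2-3p had 12.6, 10.9, 24.5, 13.4 and 12.9 reads per 100 reads of miR-181a-1-3p in NXT-Exo 1 to 5 and 16.7 in Ctl-Exo 5, so the 3p arm of the chromosome 13 gene had more reads in each library. For the far more abundant 5p arm the genes cannot be told apart. The table holds 2 further sequences that begin with all 19 bases of miR-181a-2-3p. These are miR-181-y and a predicted miRNA of 22 bases, here called the predicted form, which falls outside the rule for named miRNAs and was added after its values were seen.
miR-181-y: aCCACCAAccgttgactgtaa
predicted form: aCCACCAAccgttgactgtacc
The 3 added bases of the predicted form are the next 3 bases of the Mir181a2 hairpin, whereas 1 of the 2 added bases of miR-181-y matches it. With both forms added to miR-181a-2-3p, the ratio to miR-181a-1-3p was 17.0 to 36.2 per 100 in NXT-Exo and 20.8 in Ctl-Exo 5.

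miR-181-y had 10, 23, 6, 12 and 13 reads in NXT-Exo 1 to 5, against 0 in Ctl-Exo 5, which allows up to 3 reads or 1.63 CPM, and the adjusted p of edgeR was 0.776. As 9.52 to 47.9 reads per 100 of miR-181a-2-3p in NXT-Exo, its share varied widely between replicates. When it was added to miR-181a-2-3p, the summed level in NXT-Exo reached 24.8 ± 5.37 CPM (SD, n = 5), where Ctl-Exo 5 had 20.2 CPM, a difference smaller than this SD. The predicted form had 6, 17, 24, 6 and 16 reads in NXT-Exo, against 9 in Ctl-Exo 5, inside the range as CPM.

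The longer form of miR-181d-5p was the sequence of the family that stood farthest from NXT-Exo in Ctl-Exo 5 among those with reads in every library. It is listed as miR-181-x and consists of miR-181d-5p with 2 further bases, neither of which matches the Mir181d hairpin.
miR-181-x: aACATTCAttgttgtcggtgggtat
miR-181-x had 29.7, 25.9, 21.6, 30.5 and 30.3 CPM in NXT-Exo 1 to 5 and 57.7 CPM in Ctl-Exo 5, from 106 reads. All 5 NXT-Exo libraries lay below the exact 95% interval of Ctl-Exo 5, 47.3 to 69.8 CPM. The log2 fold change was -1.07 ± 0.35 (SE), with an adjusted p of 0.776 by edgeR, so miR-181-x did not pass the test. As 4.25, 3.23, 3.05, 4.23 and 4.69 reads per 100 of miR-181d-5p in NXT-Exo and 7.00 in Ctl-Exo 5, the ratio was 1.8 times the NXT-Exo mean in Ctl-Exo 5. Its exact 95% interval in Ctl-Exo 5, 5.70 to 8.53, held none of the NXT-Exo ratios. miR-181-x carries few of the reads, and miR-181d-5p with miR-181-x added came to 742 ± 54.8 CPM (SD, n = 5) for NXT-Exo, below the 882 CPM of Ctl-Exo 5.

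**Figure D4:**
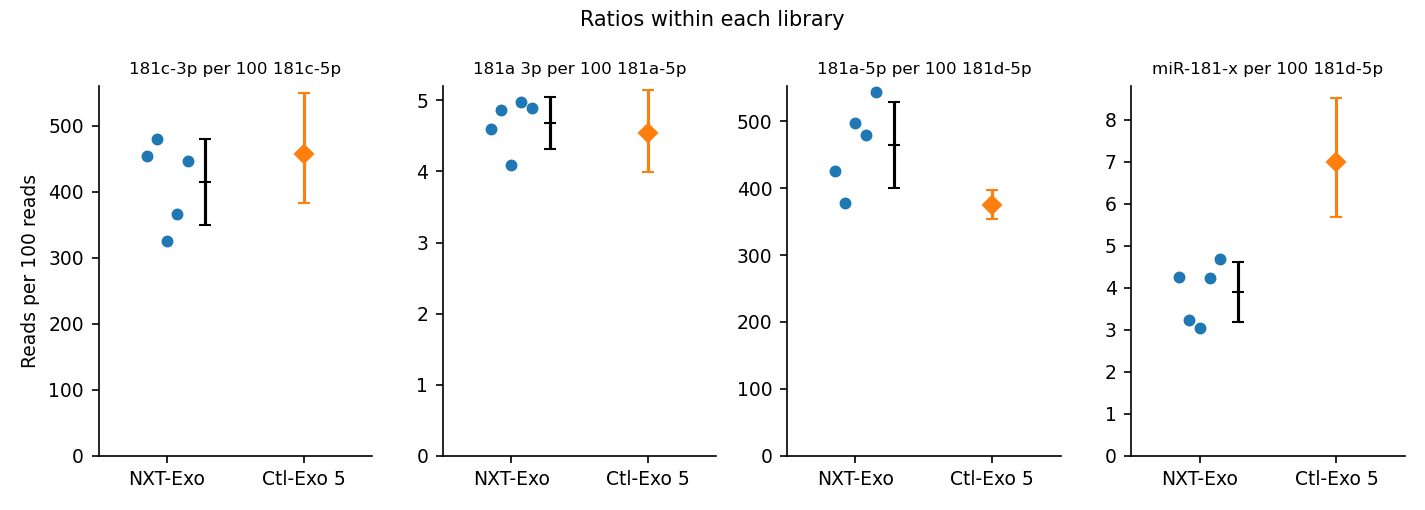
Ratios within each library, as reads per 100 reads of the second miRNA, on axes that start at 0. Blue points are NXT-Exo 1 to 5, black marks their mean and SD, and orange diamonds Ctl-Exo 5 with the exact 95% interval. The arm ratios of miR-181c and miR-181a in Ctl-Exo 5 lie within NXT-Exo, that of miR-181a-5p to miR-181d-5p (375) lies just below the lowest NXT-Exo library (378), and that of miR-181-x to miR-181d-5p (7.00) lies above the highest (4.69).

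Between the NXT-Exo libraries the family varied little. The SD of log2 CPM was 0.10 for miR-181b-5p, 0.11 for miR-181d-5p, 0.12 for miR-181a-5p, 0.13 for miR-181c-3p, 0.18 for miR-181a-1-3p and 0.21 for miR-181c-5p. For all 6 this was below 0.23, the median over the 229 miRNAs that averaged 100 reads or more per library. The seventh, miR-181a-2-3p, had a mean under 100 reads and an SD of 0.39. Its coefficient of variation was 28.1%, where counting error alone would give 14.8%, while for miR-181a-5p these values were 8.22% and 1.13%.

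**Figure D5:**
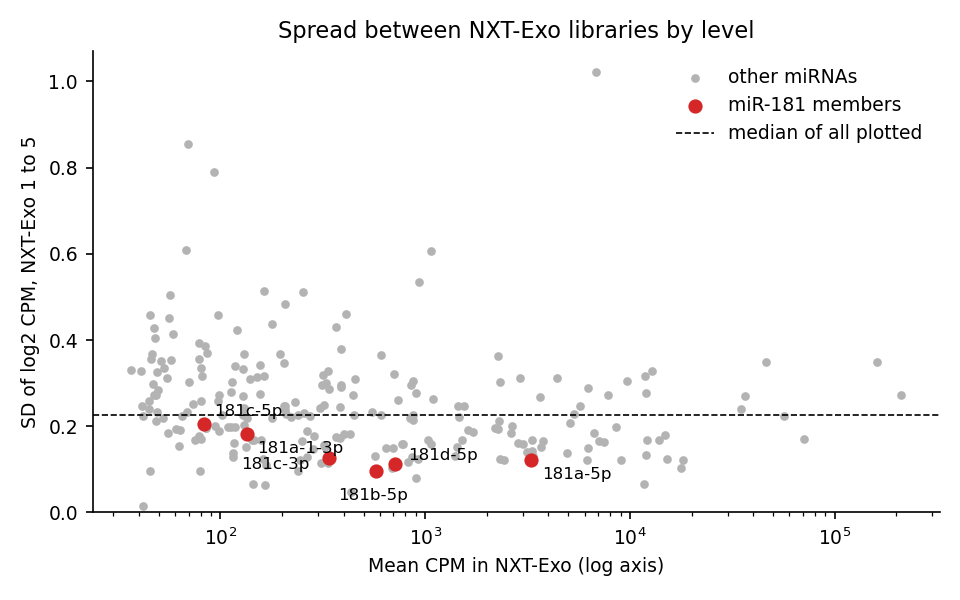
SD of log2 CPM between NXT-Exo 1 to 5 against the mean CPM on a log axis, for the 229 miRNAs that averaged 100 reads or more. Red points are miR-181 members, grey points other miRNAs, and the dashed line is the median of 0.23. The 6 members plotted lie below the line.

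The members did not all follow the same profile over the 6 libraries. With each log2 level centred on its own mean, the profile of miR-181b-5p was 0.06 from that of miR-181a-5p (root mean square difference), and that of miR-181c-5p 0.10, while that of miR-181d-5p was 0.20 from it. Among the 223 other miRNAs that averaged 100 reads or more, the closest to miR-181a-5p were miR-484 at 0.07, miR-23b-3p at 0.08 and miR-27-y at 0.08, and the median was 0.23. miR-181b-5p was thus closer than any of the 223, whereas miR-181d-5p held rank 88 among them. Of the 15 pairs of members with at least 100 reads, miR-181a-1-3p and miR-181d-5p were farthest apart at 0.23, and miR-181c-5p and miR-181c-3p, the arms of a single hairpin, were 0.20 apart. These distances are a description over 6 libraries that share their scaling, and counting error adds to them for miRNAs with fewer reads.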

How the data were processed

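Per the labels and the study's methods, small RNA libraries (TruSeq, Illumina HiSeq) of serum exosomes were filtered with ACGT101-miR. The aligner and miRNA database are not given in the sources used here, and the submitters' processing notes name Rnor_6.0. The deposited table holds the authors' raw read counts per miRNA sequence, which were tested, and their TPM values, which were used only for the library totals they imply. Its 8 columns of per-sample values for other control libraries (Ctl-Exo 1 to 4) were not used, as no label here maps them.

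Counts of NXT-Exo 1 to 5 and Ctl-Exo 5 were compared with the quasi-likelihood test of edgeR 4.0.16 (R 4.3.3) with TMM factors, over the 736 miRNAs with at least 10 reads in all, with Benjamini-Hochberg adjustment and a threshold of 0.05. DESeq2 1.42.0 was an alternative, as were other scalings, filters and left-out replicates. The test was also run on simulated data, drawn with the means and spread estimated from these same counts. Exact binomial (Clopper-Pearson) intervals and floors of 3 reads cover counting error only. The 15 pairs of libraries differed beyond counting error. Exact permutation tests were run in Python 3.11.15. Named miRNAs were the 7 members, other listed sequences named miR-181 or with a 5p member's seed, and the 3 with profiles closest to miR-181a-5p. Members and lists were chosen with earlier results of these data known.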

Additional observations from a re-analysis of the deposited data

Results flagged for a closer look

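Among 30 groups of 5 NXT-Exo values checked for a single value far from the others, 4 had a gap to the nearest value, divided by the whole range, above 0.71, the 95% critical value, which chance exceeds in about 1 of 20 groups. NXT-Exo 5 was high for the passenger arm rno-miR-181d-3p, with 3.39 CPM from 13 reads where the other libraries had 2 to 6 reads (gap over range 0.77), and likewise for its ratio to miR-181d-5p, 0.525 per 100 reads where the next highest was 0.226 (0.896). NXT-Exo 3 was low for the share of miR-181c-3p, 5.55% of the member reads where the next lowest was 6.64% (0.714). NXT-Exo 3 was also high for miR-181a-2-3p per 100 reads of miR-181a-1-3p, 24.5 where the next highest was 13.4 (0.815).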

How the results depend on the processing

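With 1 Ctl-Exo library its own spread is unknown. All 11 alternatives called 0 miRNAs, and 68 of the 77 fold changes of members under them kept their sign. The 9 that turned were all within 0.0611 of 0 on the log2 scale, and no member had an adjusted p under 0.749. miR-181b-5p became 0.02 with scaling to the listed total (0.0157) or to the TPM total (0.0161, chosen after seeing the data). miR-181c-5p became -0.01 with median-of-ratios factors (-0.0121) or DESeq2 (-0.0143) and -0.0005 with a mean of at least 10 reads. Leaving out each NXT-Exo replicate gave -0.0611 to 0.0543 for miR-181c-5p, -0.213 to 0.0456 for miR-181a-2-3p and -0.303 to 0.331 for the predicted form of miR-181a-2-3p, which was at its lowest without NXT-Exo 3. miRNAs with Ctl-Exo 5 outside the NXT-Exo range fell from 244 to 86 when at least 2-fold apart, a stricter rule by construction. These were 33.15% and 11.68% of the 736 miRNAs tested. None of the 7 members was among the 86, which says little at so small a share. Log2 differences of the summed level ran from 0.0073 to 0.0729 over its alternatives. The 70 share and arm values moved by less than 1 SD, but neither leaving out a replicate nor taking the median can exceed it. Small share differences between NXT-Exo and Ctl-Exo 5 could change sign. For miR-181a-2-3p the difference was -0.0175 percentage points in the main setting and 0.0035 without NXT-Exo 2. For miR-181c-5p it was -0.0165 and, without NXT-Exo 1, 0.0131. No paired analysis was made, because the groups were different rats and the labels pair no libraries, so a shared replicate number is not a pair. For miR-181-y, miR-181d-3p and the predicted form, under 25 reads per library limit the precision.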
